A study of Rattus norvegicus with 12 samples.

Results

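The rat microRNAs rno-miR-103-3p, rno-miR-423-3p, rno-miR-423-5p and rno-miR-484, given below without the species prefix, are often used as internal references for serum and plasma, and their stability was examined in rat serum after caffeine, dextromethorphan or both. They were found by name in the deposited table, where they filled 6 of 836 rows; copies with the same name were summed, which gave 4 of 752 mature names. The 12 small RNA libraries, 3 per group, were made from serum of male rats of the Jcl:SD (Sprague-Dawley) stock, aged 7 weeks. The CAF group had received a single oral dose of 180 mg/kg caffeine, and the DEX group 200 mg/kg dextromethorphan hydrobromide monohydrate. The CAF+DEX group received both drugs at these doses, dextromethorphan 1 h after caffeine, and the control group received the vehicle alone, sterile distilled water. Blood was taken 1 h after dextromethorphan in the DEX and CAF+DEX groups, and the sample labels list no blood time for CAF and control. The design text gives 5 rats per group, and the labels do not say that each library came from its own rat, so p-values here measure the spread between libraries.

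A reference microRNA serves as the divisor for all others, so any change of its own passes into every normalised value. The microRNAs of serum are carried in vesicles and protein complexes shed by blood cells and tissues, and no single one is known to be constant in every setting. In mammals miR-103 is encoded in introns of pantothenate kinase genes, as is its close relative miR-107; in mice both regulate insulin signalling in liver and fat. The miR-423 hairpin yields abundant mature microRNAs from both arms, and in humans its 5p arm is known as a circulating marker studied in heart failure. In mice miR-484 is made from a capped precursor without cutting by Drosha, and it represses the mitochondrial fission factor Fis1.

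The sequences below, from RefSeq for build GRCr8, show which of these microRNAs could exchange reads. Mature sequences of 3 of the 4 were matched by name, and miR-107-3p is set beside them as the relative of miR-103-3p. Capitals mark the seed, bases 2 to 8, which pairs with targets.
miR-103-3p: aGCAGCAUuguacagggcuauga
miR-107-3p: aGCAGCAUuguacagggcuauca
miR-423-5p: uGAGGGGCagagagcgagacuuuu
miR-484: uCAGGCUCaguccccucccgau

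The miR-103-3p and miR-107-3p sequences share their seed and are identical at 22 of 23 bases, with the substitution G22C (position counted from the 5′ end, the base of miR-103-3p first). No other of the 693 mature names in the RefSeq table had that seed. The seed of miR-423-5p occurred in 1 further name, miR-3573-5p, which averaged 2.90 FPKM, and that of miR-484 in 2 further names, of which miR-344a-5p was at 0 FPKM in every library. The hairpin of miR-423, 79 bases long, is shown because both of its arms were measured. Capitals mark the miR-423-5p arm, and miR-423-3p comes from the other side.
Mir423: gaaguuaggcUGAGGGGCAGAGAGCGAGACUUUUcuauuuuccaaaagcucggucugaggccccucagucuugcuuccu

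In the files' coordinates, whose build is rn6 per the submitters' processing notes, miR-103-3p was listed at chr3:123833722-123833744 and chr10:20606766-20606788, both on the plus strand. The values at these places differed by at most 0.517% in any library. Likewise miR-484 was listed at chr10:27855-27876 and chr10:908418-908439 on the minus strand with identical values, so reads of both microRNAs had been divided between copies. The arms of miR-423 were listed once each, at chr10:63098376-63098399 (5p) and chr10:63098412-63098434 (3p), on the plus strand. The opposite arms of miR-103, miR-103-1-5p and miR-103-2-5p, never exceeded 1 read in any library.

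Values are FPKM, which here are relative to the reads assigned to listed microRNAs, and each library's read number was recovered from the steps between its values. Reads ranged from 1504963 to 1842796 in CAF libraries, 403913 to 895792 in DEX, 758290 to 1160717 in CAF+DEX and 1304868 to 2625593 in control. A haemolysis index was taken as log2 of miR-451-5p, abundant in red cells, over miR-23a-3p. It averaged -6.75 ± 0.35 in CAF, -5.62 ± 0.74 in DEX, -6.00 ± 0.40 in CAF+DEX and -7.56 ± 0.39 in control (SD, n = 3 each). Of 5 red-cell markers 3 were in the table, miR-451-5p, miR-144-3p and miR-144-5p, and none of the 3 was at 0 in all libraries. Their summed level was 3641 to 5554 FPKM in CAF, 6349 to 13269 in DEX, 4055 to 6645 in CAF+DEX and 2515 to 3306 in control. The read ranges of DEX and of CAF+DEX lay below that of control, while that of CAF overlapped it. The summed red-cell levels of CAF, DEX and CAF+DEX each lay above those of control, and those of CAF and CAF+DEX overlapped each other. The sum was not tested. By limma's F test over the 4 groups, 3 of 3 liver markers, 3 of 3 striated muscle markers, 3 of 3 leukocyte markers, 1 of 3 red-cell markers and 0 of 3 platelet markers differed (2 of the platelet markers at an unadjusted p under 0.05). Over all 366 microRNAs tested, 11.5% passed that test and 31.7% had an unadjusted p under 0.05. Against control, limma called 0 of 3 red-cell markers in CAF, 2 in DEX and 1 in CAF+DEX, all higher. It called 1 of 3 platelet markers in each comparison, also higher. The platelet marker miR-223-3p had log2 fold changes of -0.20, -0.66 and -0.22 in CAF, DEX and CAF+DEX and did not pass. In these comparisons 7.92%, 12% and 10.9% of all microRNAs passed.

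The 4 reference microRNAs covered a wide range of levels. The order was miR-423-5p, with a mean of 272935 FPKM over the 12 libraries, miR-103-3p with 73622, miR-423-3p with 34531 and miR-484 with 1035. Their ranks by level among the 366 microRNAs tested were 26, 47, 62 and 214. In each of the 12 libraries miR-423-5p was the highest of the 4 and miR-484 the lowest, and miR-103-3p lay above miR-423-3p. Together they took 0.720% ± 0.223 of reads in CAF, 1.04% ± 0.466 in DEX, 0.724% ± 0.0721 in CAF+DEX and 1.14% ± 0.311 in control (SD, n = 3 each).

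**Figure D1:**
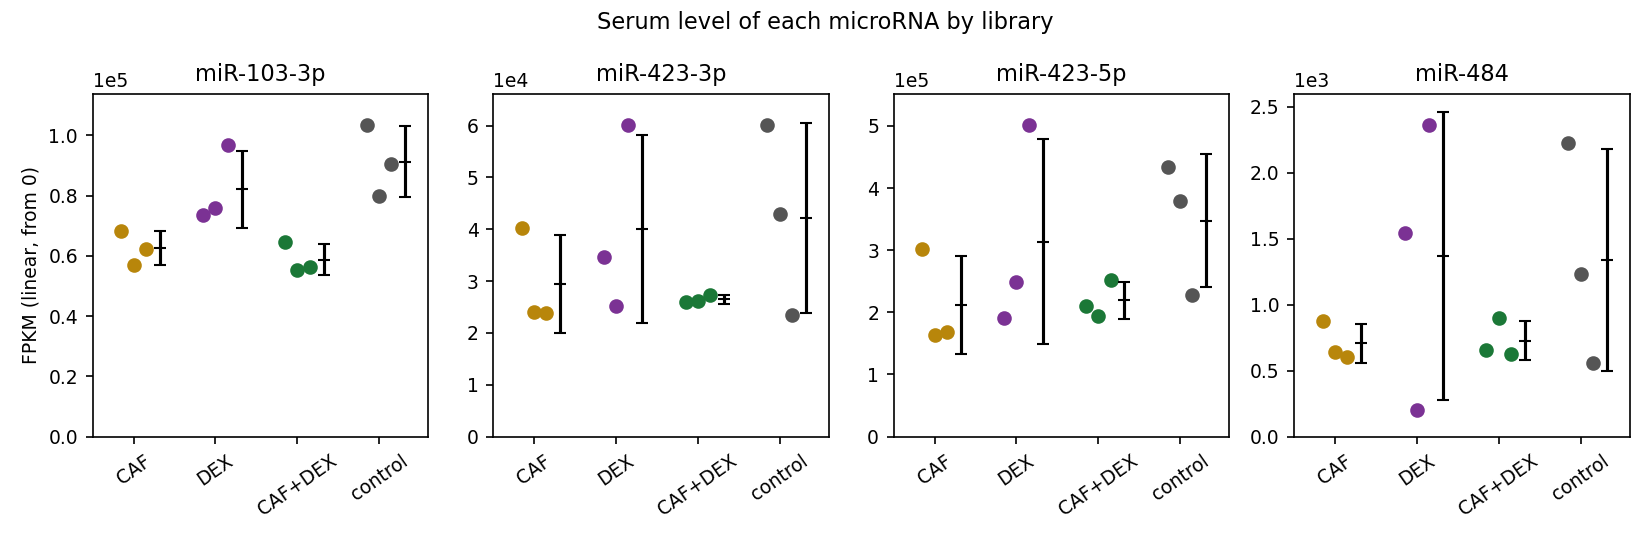
Level of each reference microRNA in FPKM on a linear axis from 0, 1 point per library, with the mean and SD of each group (n = 3) as a black bar. The 6 points of CAF and CAF+DEX lie below the 6 points of DEX and control for miR-103-3p, while the groups overlap for the others.

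With the spread pooled over groups miR-103-3p was the steadiest of the 4, although in CAF+DEX alone miR-423-3p varied less. It measured 68177, 56872 and 62291 FPKM in CAF libraries, 73467, 75868 and 96807 in DEX, 64518, 55196 and 56425 in CAF+DEX and 103522, 79929 and 90386 in control. Its coefficient of variation was 9.05% in CAF, 15.6% in DEX, 8.63% in CAF+DEX and 13.0% in control. The pooled within-group SD of log2(FPKM + 40) was 0.17, the 9th smallest of 366, against a median of 0.52 over all tested. The SD that counting error alone would give, from 774 to 5010 reads per library, was 0.036. The SD between its 4 group means was 0.30, which ranked 97th from the smallest, so its groups differed more than libraries within a group did.

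The libraries with caffeine held less miR-103-3p than those without. The 6 CAF and CAF+DEX libraries spanned 55196 to 68177 FPKM, and the 6 DEX and control libraries 73467 to 103522 FPKM. For 1 of 366 tested microRNAs (0.273%) all 6 libraries with caffeine lay below all 6 without, and this 1 was miR-103-3p; none lay wholly above. With median-of-ratios scaling miR-103-3p was 1 of 3 microRNAs in that position, while with quantile normalization, and with miR-191a-5p left out of the total, its values overlapped. Read totals overlapped between these sets, 758290 to 1842796 with caffeine and 403913 to 2625593 without. So did miR-451-5p, 2599 to 5072 FPKM with caffeine and 1324 to 8215 without. The set without caffeine joins DEX and control, however. In control alone miR-451-5p was 1324 to 2415 FPKM, below CAF with 2599 to 3559 and CAF+DEX with 3015 to 5072. The cause of the lower miR-103-3p was not tested.

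Against control, miR-103-3p was 0.686-fold in CAF (95% interval 0.496 to 0.950), 0.897-fold in DEX (0.648 to 1.24) and 0.645-fold in CAF+DEX (0.466 to 0.894). All 3 CAF libraries, and all 3 CAF+DEX libraries, lay below all 3 controls, a pattern found in 6.56% and 15.8% of the microRNAs tested. The limma adjusted p was 0.150 for CAF, 0.626 for DEX and 0.0787 for CAF+DEX, with unadjusted values of 0.0261, 0.488 and 0.0116, so miR-103-3p did not pass. In the same comparisons 7.92% of microRNAs passed for CAF, 12% for DEX and 10.9% for CAF+DEX. The F test over the 4 groups gave it an adjusted p of 0.124, where 11.5% of microRNAs passed. The average effect of caffeine over both levels of dextromethorphan, a contrast chosen after the values were seen, was -0.51 ± 0.16 log2 units (SE; 0.703-fold, 0.558 to 0.885; limma adjusted p = 0.0811), in a contrast where 3.83% of microRNAs passed. That of dextromethorphan was -0.12 ± 0.16 (adjusted p = 0.662), where 3.83% passed also. With voom on the recovered counts the adjusted p was 0.106 for CAF and 0.0619 for CAF+DEX.

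These calls depended on the scaling. As deposited, the median log2 fold change of all 366 microRNAs was 0.19 in CAF, 0.47 in DEX and 0.24 in CAF+DEX, and relative to it miR-103-3p stood at -0.73, -0.63 and -0.88. With median-of-ratios scaling its log2 fold change was -0.79 in CAF (limma adjusted p = 0.0343) and -0.80 in CAF+DEX (0.0243). Quantile normalization gave -0.83 (0.0228) and -0.71 (0.0326), and leaving miR-191a-5p out of the total gave -0.85 in CAF+DEX (0.0212). In CAF miR-103-3p did not pass without miR-191a-5p, and in DEX it did not pass under any alternative in which it was tested. Of all microRNAs, 5.19% passed in CAF and 12% in CAF+DEX with median-of-ratios scaling, and 4.92% and 10.4% with quantile normalization. Without miR-191a-5p 5.48% passed in CAF and 10.7% in CAF+DEX. The F test passed under the first 2 of these scalings, with adjusted p of 0.0425 and 0.0325. With the haemolysis index as covariate the log2 fold change of miR-103-3p was -0.57 in CAF (limma adjusted p = 0.306) and -0.68 in CAF+DEX (0.666), and with the log2 library total -0.58 (0.0950) and -0.78 (0.234). Every control library had a lower index than every treated library, and control read totals lay above those of DEX and CAF+DEX. Where they separate in this way, covariate and treatment cannot be told apart by these fits.

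The relative of miR-103-3p was scarcer. For miR-107-3p the level was 1374 to 2241 FPKM in CAF, 2451 to 3624 in DEX, 1854 to 2347 in CAF+DEX and 2010 to 2906 in control, from 25 to 141 reads per library. It did not pass in any comparison with control, with log2 fold changes of -0.31 ± 0.31 in CAF, 0.32 ± 0.31 in DEX and -0.11 ± 0.31 in CAF+DEX (SE; limma adjusted p = 0.593, 0.470 and 0.841). The ratio of miR-103-3p to miR-107-3p was 33.8 ± 6.92 in CAF, 28.0 ± 2.55 in DEX, 27.4 ± 3.0 in CAF+DEX and 39.3 ± 4.96 in control (SD, n = 3 each). In the fit of all microRNAs relative to miR-103-3p this ratio did not pass among the groups (F test, adjusted p = 0.347). Recovered counts of both were fractional in 11 of 12 libraries, so their reads were in part divided between features. This was not particular to the pair. Counts were whole in 1 library for miR-23a-3p, 4 for miR-423-5p, 10 for miR-484 and 12 for miR-423-3p.

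Both arms of miR-423 varied between libraries of the same group. For miR-423-5p the values were 302177, 163474 and 167834 FPKM in CAF, 190730, 248837 and 502068 in DEX, 210762, 194796 and 252376 in CAF+DEX and 434676, 379996 and 227498 in control. The highest library was DEX3 and the next ctrl1, and all groups overlapped. For miR-423-3p the values were 40285, 24113 and 23892 FPKM in CAF, 34703, 25191 and 60172 in DEX, 25930, 26088 and 27382 in CAF+DEX and 60084, 43038 and 23491 in control. The same 2 libraries were highest, and the lowest was ctrl5, so the control group alone spanned 2.56-fold.

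Their pooled within-group SD was 0.51 for miR-423-5p and 0.52 for miR-423-3p, ranks 177 and 181 of 366 and close to the median of 0.52. Among the 214 microRNAs at least as abundant as miR-484 they ranked 145 and 148, where the median was 0.42. Counting error alone would give 0.019 and 0.055, from at least 2649 and 257 reads per library. The CAF+DEX group was the tightest, with a coefficient of variation of 13.6% for miR-423-5p and 3.01% for miR-423-3p. The corresponding values were 37.3% and 31.9% in CAF, 52.7% and 45.2% in DEX and 30.9% and 43.4% in control.

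Neither arm passed against control. For miR-423-5p the fold was 0.604 in CAF (95% interval 0.359 to 1.02), 0.859 in DEX (0.510 to 1.45) and 0.651 in CAF+DEX (0.386 to 1.1), with limma adjusted p of 0.216, 0.663 and 0.268. For miR-423-3p it was 0.726 (0.424 to 1.24), 0.953 (0.557 to 1.63) and 0.673 (0.393 to 1.15), with adjusted p of 0.467, 0.894 and 0.325. The F test gave adjusted p of 0.331 for the 5p and 0.483 for the 3p arm. Each of these intervals includes no change and also a level of 0.557-fold of control or lower.

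Over the 12 libraries the ratio of the arms was steadier than either arm, although in CAF+DEX alone miR-423-3p varied less than the ratio. There was 7.10 ± 0.367 times as much miR-423-5p as miR-423-3p in CAF, 7.91 ± 2.22 in DEX, 8.27 ± 0.884 in CAF+DEX and 8.58 ± 1.24 in control (SD, n = 3 each, FPKM). The extremes were both in the DEX group, 5.50 in DEX1 and 9.88 in DEX2. The pooled within-group SD of its log2 was 0.26, about as large as the SD over all 12 libraries, 0.24.

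The least abundant of the 4 was miR-484, and with the spread pooled over groups it was the least stable, although in CAF alone both arms of miR-423 varied more. It measured 876, 641 and 604 FPKM in CAF, 1543, 205 and 2363 in DEX, 656, 899 and 627 in CAF+DEX and 2225, 1229 and 557 in control. In DEX2 it rested on 2 reads (exact Poisson 95% interval 0.242 to 7.22), and in the other libraries on 15 to 103; such intervals cover counting error only. The DEX group held both the highest and the lowest library, 11.5-fold apart. Its pooled within-group SD was 1.02, rank 332 of 366 and rank 210 of the 214 microRNAs at least as abundant, and counting error alone would give 0.41.

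For miR-484 the fold against control was 0.616 in CAF (95% interval 0.230 to 1.65), 0.816 in DEX (0.304 to 2.19) and 0.633 in CAF+DEX (0.236 to 1.70). The limma adjusted p was 0.563, 0.767 and 0.532, and the F test gave 0.783. Without DEX2 its log2 fold change in DEX was 0.70 in place of -0.29, and without DEX3 it was -0.94, so single libraries set the direction; both are among the shallowest. Over the comparisons these intervals reach from 0.230-fold to 2.19-fold of control, and each includes no change. With 3 libraries per group neither a lower nor a higher level was excluded.

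**Figure D2:**
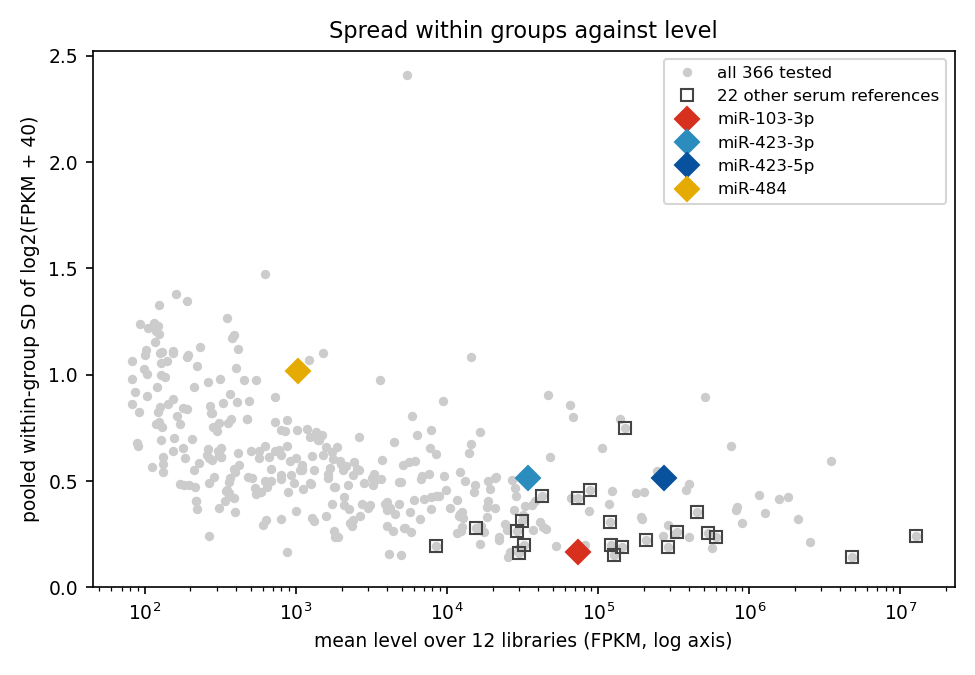
Pooled within-group SD of log2(FPKM + 40) against mean level in FPKM on a log axis, with 1 point per tested microRNA (366), open squares for 22 other microRNAs used as serum references and diamonds for the 4 described here. The miR-103-3p diamond lies at 0.17 near the lower edge, the miR-423 arms lie at 0.51 and 0.52 above most references, and miR-484 lies at 1.02.

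**Figure D3:**
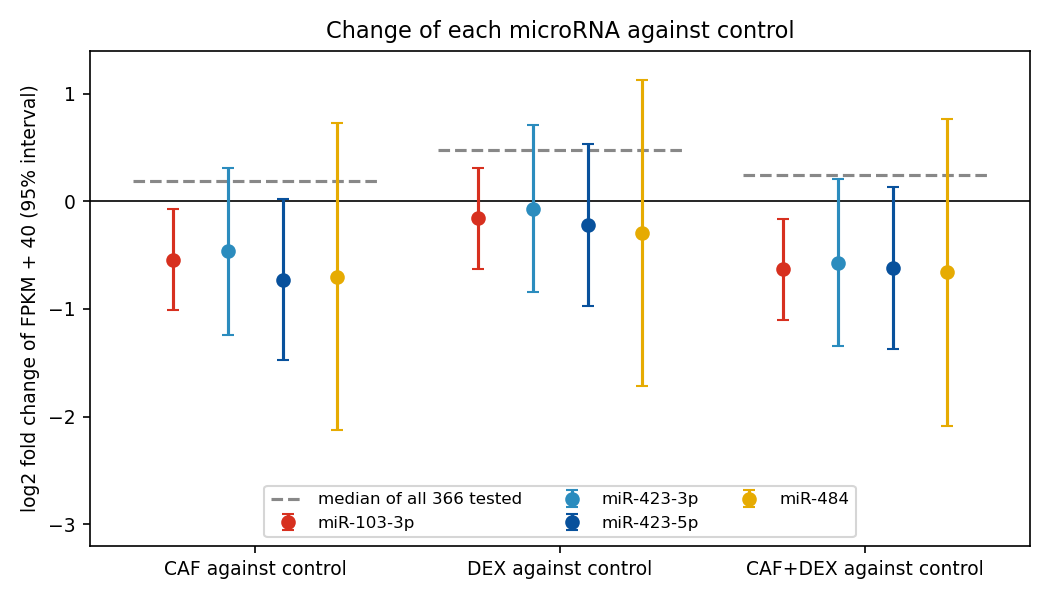
Log2 fold change of FPKM + 40 against control with its 95% interval from limma, for each reference microRNA in CAF, DEX and CAF+DEX; the dashed line is the median of all 366 tested. All 12 points lie below the dashed line, and the interval reaches 0 for every one except miR-103-3p in CAF and CAF+DEX; the 3 comparisons share their control libraries.

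Interaction and stepwise comparisons gave no call either. None of the 4 passed in CAF+DEX against CAF, in CAF+DEX against DEX or in the interaction of the drugs; the lowest limma adjusted p were 0.930, 0.297 and 0.819. In CAF+DEX against DEX the log2 fold change of miR-103-3p was -0.47 ± 0.22 (SE). In these comparisons 0%, 3.55% and 4.64% of all microRNAs passed, and 6.01% of all had an unadjusted p under 0.05 in the first, where voom also called 0.

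Ratios between the 4 microRNAs depend on the library total only through the added 40 FPKM, which weighs most on miR-484 (205 FPKM in DEX2). In all, 6 pairs were compared, each in a fit of all microRNAs relative to the divisor. The steadiest ratio was that of the miR-423 arms, with an SD of 0.24 log2 units over 12 libraries. Ratios of miR-423-5p and miR-423-3p to miR-103-3p followed with 0.37 each, and spanned 2.06-fold and 2.39-fold from ctrl5 at the low end to DEX3 at the high end. Ratios with miR-484 had SDs of 0.57 to miR-423-3p, 0.75 to miR-423-5p and 0.82 to miR-103-3p, each lowest in DEX2, the library with 2 reads.

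No ratio differed among the groups by the F test. Adjusted p was 0.942 for the arms of miR-423, 0.940 for miR-423-5p to miR-103-3p, 0.993 for miR-423-3p to miR-103-3p and 0.980 or more for the ratios with miR-484. In the fit relative to miR-103-3p 32.1% of all microRNAs passed that test, 5.21% relative to miR-423-3p and 10.7% relative to miR-423-5p. The 95% interval of the change of miR-423-3p relative to miR-103-3p was -0.61 to 0.77 log2 units in CAF, -0.61 to 0.78 in DEX and -0.63 to 0.75 in CAF+DEX. For miR-484 to miR-103-3p it was -1.52 to 1.21, -1.50 to 1.22 and -1.39 to 1.33. The width depended on which microRNA was the divisor. With the divisor swapped, the CAF interval was -0.97 to 0.81 for miR-103-3p to miR-423-3p and -1.64 to 1.95 for miR-103-3p to miR-484. Each of these intervals includes no change and also changes in either direction, with 3 libraries per group.

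**Figure D4:**
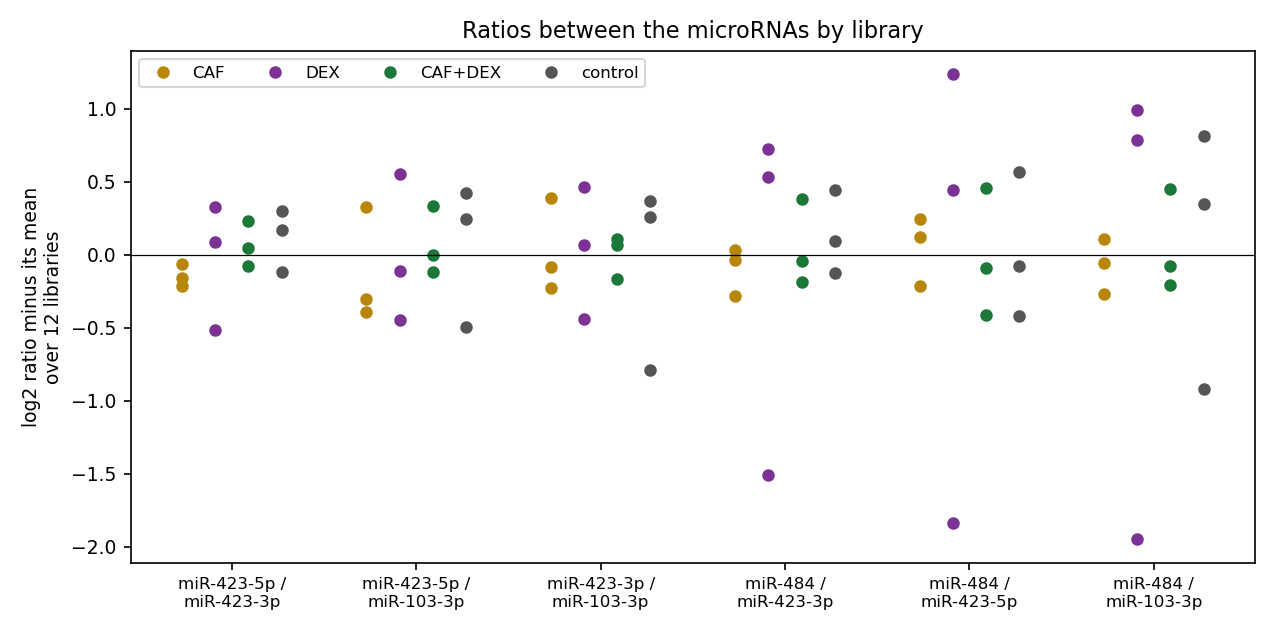
Log2 ratio of each of the 6 pairs minus its mean over the 12 libraries, 1 point per library, coloured by group. The points of the 4 groups overlap in each pair, the miR-423-5p to miR-423-3p ratio is the narrowest, and DEX2 is the lowest point in the 3 ratios with miR-484.

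Dividing every microRNA by 1 of the 4 changed how many others passed against control. As deposited, 25 were higher and 4 lower in CAF, 42 and 2 in DEX and 24 and 16 in CAF+DEX. Divided by miR-103-3p, 108 passed in CAF (29.6% of those tested), all higher but 1. In DEX 74 were then higher and 2 lower (20.8%), and in CAF+DEX 132 and 5 (37.5%). The median log2 fold change of all microRNAs was then 0.74, 0.63 and 0.88. Divided by miR-423-5p, 63 were higher and 0 lower in CAF, 16 and 0 in DEX and 34 and 1 in CAF+DEX, and divided by miR-423-3p, 12 and 0, 12 and 0, and 20 and 1.

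Divided by miR-484, few microRNAs passed: 4 in CAF, 9 in DEX and 0 in CAF+DEX by limma, where 57, 28 and 41 had an unadjusted p under 0.05. The mean of all 4 as divisor gave 50 higher and 0 lower in CAF, 14 and 0 in DEX and 27 and 1 in CAF+DEX. One abundant liver microRNA shows the size of the shift. In CAF against control miR-122-5p had a log2 fold change of 1.78 ± 0.39 as deposited (SE, limma adjusted p = 0.0137) and 2.33 ± 0.42 relative to miR-103-3p (0.00154). It was 2.24 ± 0.61 relative to miR-423-3p (0.0489), 2.51 ± 0.63 relative to miR-423-5p (0.0160) and 2.48 ± 0.90 relative to miR-484 (0.183). The red-cell and platelet microRNA miR-16-5p, itself used as a reference, had a log2 fold change of 0.27 ± 0.20 in CAF+DEX as deposited (adjusted p = 0.389) and 0.91 ± 0.22 relative to miR-103-3p (0.00798).

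**Figure D5:**
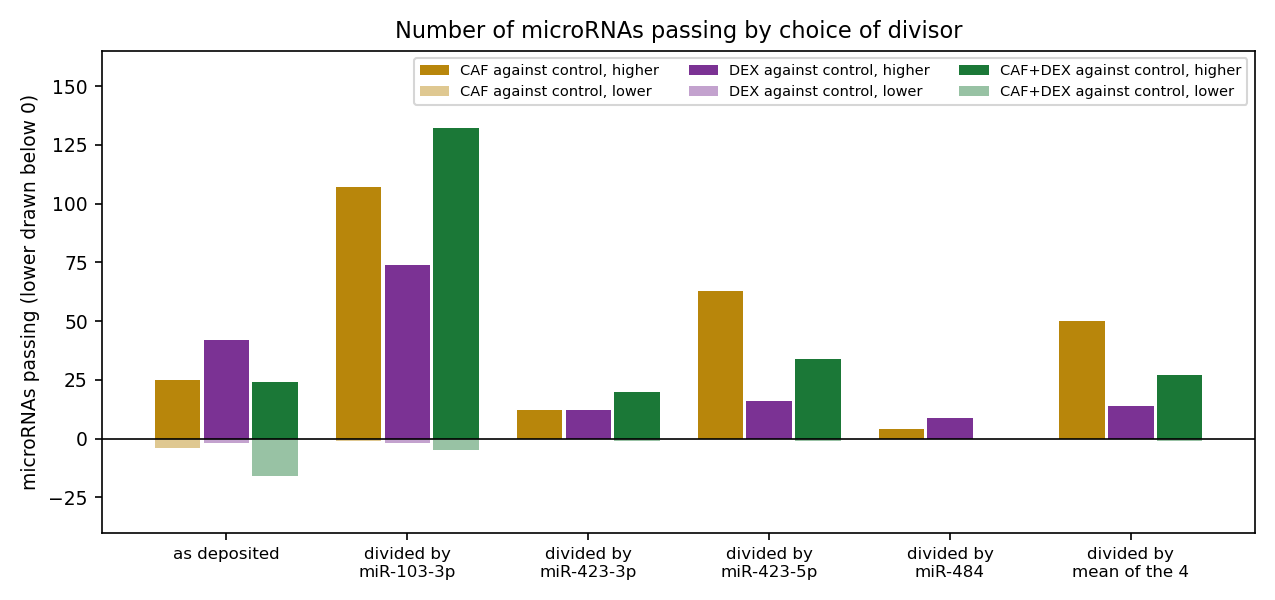
Number of microRNAs with a limma adjusted p under 0.05 in CAF, DEX and CAF+DEX against control, as deposited and after division by each reference microRNA or their mean; those higher are drawn upward and those lower downward from 0. Division by miR-103-3p gives the tallest bars, with 108, 76 and 137 in all, and division by miR-484 the shortest, 4, 9 and 0.

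Many other microRNAs used as references were steadier. All 22 in the list were tested, and their median SD over the 12 libraries was 0.28, against 0.66 over all 366 tested. It was 0.51 over the 214 microRNAs at least as abundant as miR-484, and levels were not matched further. Of the 22, 12 had a smaller SD over the 12 libraries than miR-103-3p (0.31), 20 a smaller one than either arm of miR-423, and 22 a smaller one than miR-484. Levels were not matched in these counts. Of the 22, 15 were more abundant than miR-103-3p, 16 than miR-423-3p, 7 than miR-423-5p and 22 than miR-484. Within groups 3 of the 22 had a smaller SD than miR-103-3p: miR-16-5p (0.14), let-7d-3p (0.15) and miR-186-5p (0.16). Over all 12 libraries the least variable of the list were miR-16-5p with 0.20, let-7g-5p with 0.20 and miR-324-5p with 0.22. The most variable over the same libraries were miR-126a-3p with 0.91, miR-142-3p of blood cells with 0.61 and miR-425-5p with 0.50. Of these, miR-126a-3p is an endothelial microRNA that was also counted above as a platelet marker.

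By limma 0 of the 22 differed among the groups in the F test, where 11.5% of all microRNAs tested did, and 3 of the 22 had an unadjusted p under 0.05, against 31.7% of all. Over the 3 comparisons with control 1 of the 22 passed, once, where the shares of all microRNAs were 7.92% in CAF, 12% in DEX and 10.9% in CAF+DEX. This was miR-126a-3p, higher in CAF+DEX by 1.60 log2 units (adjusted p = 0.0441). Their median log2 fold change was -0.23 in CAF, -0.03 in DEX and -0.27 in CAF+DEX, where that of all tested was 0.19, 0.47 and 0.24. The most abundant microRNA, miR-191a-5p, had -0.67 in DEX (adjusted p = 0.0597). Among all microRNAs at least as abundant as miR-484, the 5 with the smallest SD over the 12 libraries were miR-361-3p (0.16), miR-28-3p (0.17), miR-16-5p, miR-210-3p and miR-301a-3p (0.20 each). None of the 4 reference microRNAs was among them.

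Each of the 4 was compared with the other microRNAs above the median level (182 for 3 of them and 183 for miR-484) by Pearson's r of log2(FPKM + 40) over the 12 libraries. These values share the library total and are given as a description. For miR-103-3p the most alike were miR-181d-5p (0.90), miR-26b-5p (0.87) and miR-20a-5p (0.87), and for miR-423-3p they were miR-151-3p (0.92), miR-320-3p (0.91) and miR-501-3p (0.91). For miR-423-5p they were miR-148a-3p (0.90), miR-423-3p (0.89) and miR-501-3p (0.87), and for miR-484 miR-93-3p (0.90), miR-30d-5p (0.85) and miR-423-3p (0.83). The relative miR-107-3p had 0.65 with miR-103-3p.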

How the data were processed

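The authors deposited FPKM per mature microRNA, 1 column per library. Build rn6, STAR 2.7.10a, cutadapt 3.7, DESeq2 1.20.0, featureCounts and Subread 2.0.1 are named, per the submitters' processing notes; their roles, and use of the kit's unique molecular indices, are not stated there. FPKM times length summed to the same constant in every column, so a rise in one abundant microRNA lowers all others. Counts in steps of 0.01 were recovered for 100% of values above 0 (tolerance 0.0001), which gave the library totals. Column names gave the group but not the numbers of the sample titles.

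Copies were summed by name, and 366 names that averaged 80 FPKM or more and were above 0 in 3 or more libraries were tested on log2(FPKM + 40), which understates changes of low values. limma 3.58.1 (R 4.3.3) fitted all 4 groups together, with moderated variances and a trend on mean level; tests are two-sided with Benjamini-Hochberg adjustment over all tested and a threshold of 0.05. The code was tested on simulated data. Named were the 4 reference microRNAs, the other arms, miR-107-3p and some markers of cell types. Also named were passing or extreme members of the reference list, the 3 most alike and the 5 least variable. Members and lists were chosen with earlier results of these data known; drug main effects, and the comparison of all libraries with and without caffeine, were added after the values were seen. Alternatives covered pseudocount, filter, scaling, divisor, model, covariates and left-out libraries. Tables and figures used Python 3.11.15, pandas 2.3.3 and matplotlib 3.10.9.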

Additional observations from a re-analysis of the deposited data

How the results depend on the processing

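Among the 4 reference microRNAs, calls against control changed for miR-103-3p alone, under the 3 scalings named above. Its caffeine effect over both levels of dextromethorphan ranged in adjusted p from 0.0470 without DEX1, where 1 of the 4 and 8.17% of all microRNAs tested passed (3.83% with all libraries), to 0.216 without the 2 shallowest libraries; in the other runs that left out 1 library, 0 passed. In DEX against control the sign was not stable for 3 of them. The log2 fold change of miR-423-3p was 0.019 with the haemolysis index and 0.29 with the log2 library total as covariate, and -0.44 to 0.24 with 1 library left out. That of miR-423-5p was -0.62 to 0.078 with 1 library left out. That of miR-484 was 0.75 with the index, 0.93 with the total, 0.40 without the 2 shallowest libraries and -0.94 to 0.70 with 1 left out. In CAF+DEX miR-484 had 0.18 and 0.0055 with these covariates. Both covariates separated control from DEX and from CAF+DEX, so these fits cannot tell covariate from treatment. The cause was not tested.

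Counts of passing microRNAs (as deposited 29 in CAF, 44 in DEX, 40 in CAF+DEX and 42 by the F test) moved as follows, in that order. They were 11, 26, 13 and 26 without the low-value filter, where more names were tested, and 9, 18, 17 and 26 without the trend. The haemolysis index gave 5, 1, 1 and 16, and the log2 library total 17, 0, 0 and 24 (41 and 48 in DEX and CAF+DEX at an unadjusted p under 0.05). The index separated control from every treatment, and the total separated it from DEX and CAF+DEX. Calls lost in these fits therefore cannot be assigned to covariate or treatment. Division by miR-103-3p gave 108, 76, 137 and 117, by miR-423-3p 12, 12, 21 and 19, and by miR-484 4, 9, 0 and 4. In CAF the count was 19 with median-of-ratios scaling, 18 with quantile normalization, 48 with voom, 65 with the 2 groups alone, 45 without the 2 shallowest libraries, 63 divided by miR-423-5p and 50 by the mean of the 4. In DEX it was 28 without miR-191a-5p, 25 with the 2 groups alone, 18 without the 2 shallowest, 16 divided by miR-423-5p and 14 by the mean. With 1 library left out, counts ranged from 4 (without ctrl3) to 44 (without DEX1) in CAF, 12 (DEX3) to 74 (DEX1) in DEX, 4 (CAFDEX2) to 56 (CAFDEX6) in CAF+DEX and 18 (ctrl1) to 71 (DEX1) by the F test. The split of higher and lower calls, as deposited 25 and 4 in CAF, 42 and 2 in DEX and 24 and 16 in CAF+DEX, was 12 and 7, 15 and 19, and 19 and 25 with median-of-ratios scaling. It was 11 and 7, 13 and 17, and 17 and 21 with quantile normalization, and 16 and 4, 16 and 12, and 12 and 27 without miR-191a-5p. No paired analysis was possible because the columns do not carry the replicate numbers of the sample titles.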
